A study of Mus musculus with 19 samples.

Results

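The chemokines and their receptors were examined in epididymal white adipose tissue (eWAT) of mice fed diets that differed in Mg2+ and fat. The genes were chosen by name and annotation: every protein-coding gene whose symbol is a numbered Ccl or Cxcl ligand, Cx3cl1, Xcl1, a numbered Ccr or Cxcr receptor, Cx3cr1, Xcr1 or Ackr1 to Ackr4. This gave 61 of the 24237 genes in the table, with 56 distinct symbols, of which 40 were ligand genes and 21 were receptor genes. Another 3 genes carried such a symbol but were not annotated as protein coding and were left out. All mice were male C57Bl6/J without a genetic modification, and each received its diet for 17 weeks. The groups were normal Mg2+ with low fat (NormMg-LFD, n = 4 mice), low Mg2+ with low fat (LowMg-LFD, n = 5), normal Mg2+ with high fat (NormMg-HFD, n = 5) and low Mg2+ with high fat (LowMg-HFD, n = 5). The fat of the diets came from palm oil. Total RNA was extracted from the tissue with no separation of cells described, so every level is an average over its cell types.

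Chemokines are small secreted proteins that direct the movement of leucocytes. They bind to receptors coupled to G proteins on the target cell, and the cell moves towards the higher concentration. Their names follow the spacing of conserved cysteines (CC, CXC, CX3C and C). Atypical chemokine receptors (Ackr) do not signal through G proteins and instead take up or transport the ligand. In obese adipose tissue, CCL2 and its receptor CCR2 are known for the recruitment of blood monocytes, which become tissue macrophages.

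Depth was nearly the same in all mice, at 12986441 to 13027028 reads per mouse, of which 86.12% to 90.41% were mapped. Expression is given as FPKM, fragments per kilobase of transcript scaled to the number of mapped fragments. These values carry no read counts, so the counting error of a single gene is unknown. Adipocyte markers were high in every mouse, with a summed level of 10505 to 18550 FPKM over 6 genes. In some mice, a list of markers for another tissue or cell type stood apart. Exocrine pancreas genes summed to 1729 FPKM in NormMg-LFD replicate 3 against 12.35 to 61.96 in the other mice, and epididymis genes to 121 FPKM in LowMg-LFD replicate 4 against 0 to 1.92. Spermatid genes, chosen after their values were seen, summed to 113 FPKM in LowMg-HFD replicate 4 against 0 to 7.4. Neutrophil genes summed to 154 FPKM in NormMg-HFD replicate 3 against 5.47 to 31.81. Less far apart, mesothelium genes summed to 99.2 FPKM in NormMg-LFD replicate 5 against 9.43 to 53.36, and T cell and B cell genes to 35.5 and 24.0 FPKM in NormMg-HFD replicate 2 against 7.48 to 23.87 and 3.97 to 15.92.

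Of the 61 genes, 20 had a mean over 8 FPKM in a group and exceeded 8 FPKM in at least 4 mice of it, and entered the main test, which held 8336 genes in all. Of the 20, 10 passed in all 4 groups, 4 (Ccl2, Ccl7, Cxcl16 and Cxcr4) in both high-fat groups alone, and Cxcl14 and Ccl5 in NormMg-HFD alone. A gene that passed only through the group where it is high had to differ to some extent, so the counts and medians below are descriptions. A further 18 passed the same filter only when it was set at 1 FPKM. Another 9 genes had a mean over 1 FPKM in at least 1 group but passed neither filter, and 14 had a mean of at most 1 FPKM in every group. Genes were tested with limma on log2(FPKM + 1), and a gene was called at a Benjamini-Hochberg adjusted p below 0.05 over all genes tested. All tests were two-sided, and a log2 difference on this scale understates the change of a low gene.

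A set of promoters of neighbouring genes is shown first. They do not stand for all genes that moved: Cxcl14, Cxcl12 and Cxcl16 lie elsewhere, and the promoters of Ccl2 and Ccl7 were not analysed. Sequences are from RefSeq on GRCm38.p6, read 5′ to 3′ on the strand of the gene, and cover 250 bases before the start and 50 after it. Ccl6 and Ccl9 are neighbours in the chromosome 11 cluster of CC chemokines and both fell with low Mg2+ on the high-fat diet. In their promoters, the capitals mark the best local alignment between them, which spans 74 columns with 59 identical (79.7%).
Ccl6, chr11:83593038-83593337, minus strand: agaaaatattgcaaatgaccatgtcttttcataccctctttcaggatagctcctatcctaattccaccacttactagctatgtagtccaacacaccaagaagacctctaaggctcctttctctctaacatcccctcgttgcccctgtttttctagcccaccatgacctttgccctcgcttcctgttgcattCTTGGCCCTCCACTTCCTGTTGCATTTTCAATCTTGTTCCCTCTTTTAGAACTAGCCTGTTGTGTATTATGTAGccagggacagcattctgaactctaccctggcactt
Ccl9, chr11:83578587-83578886, minus strand: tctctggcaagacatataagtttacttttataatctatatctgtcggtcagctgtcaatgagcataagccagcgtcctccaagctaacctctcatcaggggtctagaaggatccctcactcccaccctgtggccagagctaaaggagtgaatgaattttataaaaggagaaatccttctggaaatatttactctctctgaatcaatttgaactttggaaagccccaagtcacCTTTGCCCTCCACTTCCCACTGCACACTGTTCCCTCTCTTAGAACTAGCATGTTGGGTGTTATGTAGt
The alignment score was 37, with 1 for a match, -1 for a mismatch and -2 for a gap. The next best of the 28 pairs scored 15, among the 8 genes called in that comparison at either filter whose promoter was at hand. In both genes the shared stretch reaches past the start into the transcribed bases. In Ccl9 it runs from base -18 to base 48 around the start, so most of it is transcribed.

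Cxcl1, Cxcl2 and Cxcl3 encode ligands of CXCR2, the receptor that draws neutrophils, and lie together on chromosome 5. They are shown because the same mouse, NormMg-HFD replicate 3, held the highest level of all 3. The 100 bases up to the start are given, and the capitals mark letters that match the NF-κB motif.
Cxcl1, chr5:90891145-90891244, plus strand: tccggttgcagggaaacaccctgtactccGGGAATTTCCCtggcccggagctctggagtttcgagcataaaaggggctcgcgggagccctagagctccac
Cxcl2, chr5:90903799-90903898, plus strand: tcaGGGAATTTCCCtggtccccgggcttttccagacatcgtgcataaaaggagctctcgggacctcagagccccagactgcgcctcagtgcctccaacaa
Cxcl3, chr5:90786001-90786100, plus strand: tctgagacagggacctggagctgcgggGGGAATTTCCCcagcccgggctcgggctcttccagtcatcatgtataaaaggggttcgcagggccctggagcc
Each of the 3 promoters held 2 overlapping NF-κB matches, and the 11 bases they cover were identical in all 3. Among all 32851 RefSeq promoters, searched on both strands over their 300 bases, 8.46% held an NF-κB match. A match is a run of letters and does not show that a factor binds there.

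The main question of the design was what low dietary Mg2+ does on each fat background. On the high-fat diet, 8 of the 20 tested chemokine and receptor genes were called between LowMg-HFD and NormMg-HFD. The 7 that fell were the ligands Ccl2, Ccl7, Ccl9, Ccl6, Cxcl14, Cxcl16 and Cxcl12, and the 1 that rose was the atypical receptor gene Ackr4. Among all 8336 genes tested in this comparison, 18.5% were called, 5.58% as higher and 12.9% as lower in LowMg-HFD. The median log2 difference was -0.30 over the 20 genes and -0.04 over all genes. On the low-fat diet, 0 of the 20 genes were called between LowMg-LFD and NormMg-LFD by limma, and 0 had an unadjusted p below 0.05. Over all genes that comparison called 0%, with 547 genes at an unadjusted p below 0.05.

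The genes of the CCR2 ligands Ccl2 and Ccl7 rose with fat and fell with low Mg2+ on the high-fat diet, and among the 20 genes Ccl2 had the largest rise with fat. Ccl2 (ENSMUSG00000035385.5, chr11:82035571-82037453) encodes the main monocyte-attracting chemokine. In NormMg-HFD its level was 43.75, 43.33, 98.99, 47.1 and 37.78 FPKM in replicates 1 to 5. In LowMg-HFD it was 30.02, 25.06, 16.56, 17.98 and 25.81 FPKM. Every LowMg-HFD mouse was below every NormMg-HFD mouse, and replicate 3 of NormMg-HFD stood far above its group. The low-fat mice were at 7.63, 5.35, 3.24 and 3.49 FPKM (NormMg-LFD, replicates 2 to 5) and 3.26, 5.08, 5.57, 6.84 and 5.67 FPKM (LowMg-LFD). All 9 low-fat mice thus lay below all 10 high-fat mice. Ccl2 fell by 1.14 ± 0.25 (SE) on the log2 scale with low Mg2+ on the high-fat diet, a 2.2-fold lower FPKM + 1 (adjusted p = 0.00483). It was 9.1-fold higher in NormMg-HFD than in NormMg-LFD (log2 difference 3.19 ± 0.26, adjusted p = 9.4e-07). In LowMg-HFD it was 3.82-fold higher than in LowMg-LFD (1.93 ± 0.25, adjusted p = 0.000286).

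Ccl7 (ENSMUSG00000035373.2, chr11:82045712-82047525), the gene next to Ccl2, encodes another CCR2 ligand. Its level in NormMg-HFD was 30.13, 27, 74.98, 28.38 and 34.53 FPKM. In LowMg-HFD it was 17.45, 16.55, 11.7, 16.08 and 16.56 FPKM. The groups again did not overlap, and replicate 3 was again the highest NormMg-HFD mouse. In the low-fat groups Ccl7 ranged from 3.98 to 5.15 FPKM in NormMg-LFD and from 1.55 to 7.65 FPKM in LowMg-LFD. Ccl7 fell by 1.16 ± 0.27 on the log2 scale with low Mg2+ on the high-fat diet (2.24-fold, adjusted p = 0.00682). It rose 6.71-fold with fat at normal Mg2+ and 3.3-fold at low Mg2+. Ccl8 and Ccl12, monocyte-attracting chemokines of the same cluster, did not pass the test. Ccl8 was at 31.8 ± 14.0 FPKM (SD, n = 5) in NormMg-HFD and 29.5 ± 20.9 in LowMg-HFD (n = 5), a log2 difference of -0.21 (95% CI -1.21 to 0.80). The LowMg-HFD mean holds 66.33 FPKM in replicate 4, the mouse with spermatid genes, and 17.29 to 26.66 FPKM in the other mice. The medians were 30.46 FPKM in NormMg-HFD and 19.56 FPKM in LowMg-HFD. Ccl12 passed only the lower filter, at 2.79 ± 1.08 and 1.95 ± 1.58 FPKM (log2 difference -0.48, 95% CI -1.38 to 0.42).

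Ccl9 and Ccl6, which encode ligands of CCR1 made largely by myeloid cells, were the most abundant of the chemokines that fell. Ccl6 (ENSMUSG00000018927.3, chr11:83587882-83593087) was at 418.91, 268.11, 531.01, 257.56 and 268.64 FPKM in NormMg-HFD. In LowMg-HFD it was at 255.56, 186, 148.62, 93.46 and 158.59 FPKM. The highest LowMg-HFD mouse was just below the lowest NormMg-HFD mouse. In the low-fat groups the level was 72.2 to 110.65 FPKM in NormMg-LFD and 60.52 to 197.47 FPKM in LowMg-LFD, so LowMg-HFD overlapped with both. Ccl6 fell by 1.06 ± 0.28 on the log2 scale with low Mg2+ on the high-fat diet (adjusted p = 0.0146). With fat it rose 3.52-fold at normal Mg2+ (adjusted p = 0.000104), and at low Mg2+ the log2 difference was 0.46 (95% CI -0.13 to 1.06, adjusted p = 0.29).

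Ccl9 (ENSMUSG00000019122.8, chr11:83572919-83578636) was at 299.3, 145.44, 366.07, 231.37 and 211.01 FPKM in NormMg-HFD. In LowMg-HFD it was at 174.84, 135.21, 64.82, 56.32 and 84.91 FPKM. Replicate 1 of LowMg-HFD lay above replicate 2 of NormMg-HFD, and the other mice of the groups were apart. The low-fat mice were at 25.16 to 40.92 FPKM in NormMg-LFD and 25.69 to 80.81 FPKM in LowMg-LFD. Ccl9 fell by 1.34 ± 0.32 on the log2 scale with low Mg2+ on the high-fat diet (2.52-fold, adjusted p = 0.00704). It rose 6.9-fold with fat at normal Mg2+ and 2.01-fold at low Mg2+ (adjusted p = 4.11e-06 and 0.0359). In the promoter shown above, Ccl9 held 1 NF-κB match and 1 AP-1 match (TGANTCA, in 7.81% of all promoters), whereas Ccl6 held none of the motifs searched.

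Other CC ligands of inflammation behaved unequally. Ccl5, the ligand best known from T cells, had means of 13.8 FPKM in NormMg-HFD and 14.8 FPKM in LowMg-HFD, and its log2 difference was 0.11 (95% CI -0.74 to 0.96). The NormMg-HFD mean holds 30.97 FPKM in replicate 2, the mouse with the highest T cell and B cell sums, and 5.77 to 11.53 FPKM in the other 4 mice. Ccl3 and Ccl4, which encode the macrophage inflammatory proteins, passed only the filter at 1 FPKM. Ccl3 was at 3.46, 2.32, 13.21, 3.23 and 2.54 FPKM in NormMg-HFD and 0.69, 1.88, 0.69, 0.23 and 0.23 FPKM in LowMg-HFD. The groups did not overlap. It fell by 1.60 ± 0.34 on the log2 scale among the genes tested at that filter (adjusted p = 0.0058). It passed this filter through NormMg-HFD alone, so the filter selected on the difference tested. With no filter, over all 24237 genes, its adjusted p was 0.0142. Ccl4 was at 2.7, 3.26, 9.86, 2.16 and 1.35 FPKM in NormMg-HFD and 1.35, 0.55, 1.62, 1.08 and 1.35 FPKM in LowMg-HFD. It fell by 0.95 ± 0.31 on the log2 scale (adjusted p = 0.0487), a call that held in 4 of the 26 alternative settings in which it was tested.

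**Figure D1:**
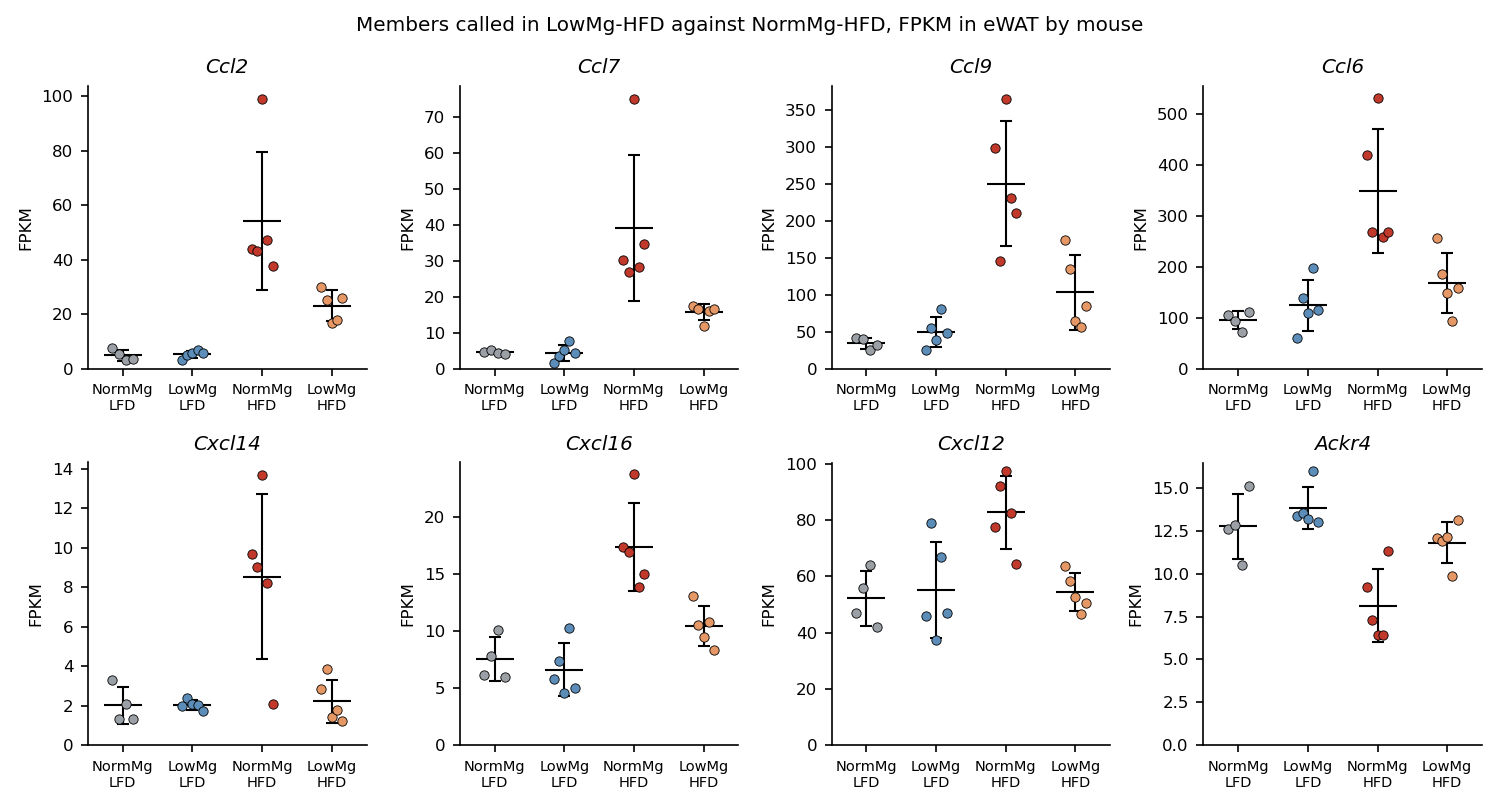
FPKM in each of the 19 mice (points; bars show the group mean, whiskers the SD) for the chemokine genes called between LowMg-HFD and NormMg-HFD. For Ccl2, the NormMg-HFD mice sit between 37.78 and 98.99 FPKM and the LowMg-HFD mice between 16.56 and 30.02 FPKM. For Ackr4, NormMg-HFD has the lowest mean.

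Among the CXC ligands, 3 fell with low Mg2+ on the high-fat diet. Cxcl14 (ENSMUSG00000021508.10, chr13:56288643-56296551) encodes a homeostatic chemokine for which the receptor remains debated. It was at 9.7, 9, 13.68, 8.19 and 2.07 FPKM in NormMg-HFD and 2.84, 3.83, 1.42, 1.79 and 1.23 FPKM in LowMg-HFD. Replicate 5 of NormMg-HFD lay within the range of the LowMg-HFD mice. The low-fat mice were at 1.33 to 3.3 FPKM. Cxcl14 fell by 1.46 ± 0.33 on the log2 scale, a 2.75-fold lower FPKM + 1 (adjusted p = 0.00574). It entered the main test through NormMg-HFD alone, where exactly 4 mice were above 8 FPKM, so the filter selected on the difference tested. Leaving out replicate 1, 2, 3 or 4 of NormMg-HFD removed it from that test. With the filter at 1 FPKM, which it passed in all 4 groups, its adjusted p was 0.00661, and at most 0.0259 when any 1 of the 19 mice was left out. With fat it rose 2.92-fold at normal Mg2+ in the main test, where the filter selected on this difference as well. That call was lost under quantile normalization (adjusted p = 0.0645). At low Mg2+ the log2 difference with fat was 0.03 (95% CI -0.67 to 0.72).

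Cxcl16 (ENSMUSG00000018920.11, chr11:70453983-70459984) encodes the membrane-bound ligand of CXCR6 and a scavenger of oxidised lipoprotein. It was at 17.38, 16.89, 23.76, 13.82 and 14.93 FPKM in NormMg-HFD and 13.01, 10.53, 9.5, 10.75 and 8.32 FPKM in LowMg-HFD, without overlap. It fell by 0.67 ± 0.19 on the log2 scale (adjusted p = 0.0192), and its level in the low-fat mice was 4.52 to 10.25 FPKM. The gene overlaps with Zmynd15 on the opposite strand, and whether the counting used strand is not given in the sources used here. Cxcl12 (ENSMUSG00000061353.11, chr6:117168535-117181367), the CXCR4 ligand made by stromal cells, was at 77.64, 92, 97.43, 82.38 and 64.3 FPKM in NormMg-HFD. In LowMg-HFD it was at 63.75, 58.33, 52.54, 46.71 and 50.63 FPKM, so the groups lay next to each other without overlap. It fell by 0.59 ± 0.17 on the log2 scale (adjusted p = 0.0224). The NormMg-LFD mice were at 41.87 to 63.89 FPKM, close to LowMg-HFD.

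The interferon-induced ligands of CXCR3 gave unequal values. Cxcl9 was at 24.6 FPKM in NormMg-HFD and 30 FPKM in LowMg-HFD, and its log2 difference was 0.27 (95% CI -0.37 to 0.91). Cxcl10 passed only the lower filter and was at 7.68, 14.27, 12.99, 7.82 and 3.38 FPKM in NormMg-HFD against 3.19, 2.27, 6.13, 3.23 and 4.26 FPKM in LowMg-HFD. It fell by 1.01 ± 0.31 on the log2 scale (adjusted p = 0.0387), and this call was lost in 11 of 26 alternative settings. Cxcl10 overlaps with Art3, a gene on the other strand whose mean was 105 FPKM in NormMg-HFD and 175 FPKM in LowMg-HFD, the opposite order. The Cxcl10 promoter held 3 NF-κB matches, 1 AP-1 match and 1 interferon response match (TTTCNNTTTC, in 3.44% of all promoters). The Cxcl14 promoter held 1 interferon response match, and Ccl3, Cxcl12, Ackr1 and Ackr4 held none of the motifs searched. The C/EBP motif (TTGCNNAA, in 10.8% of all promoters) was in none of the promoters of called genes. The promoters of Ccl2, Ccl7, Cxcl16 and Ccl4 were not analysed here.

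Of the 5 receptor genes in the main test, Ackr4 was the only one called with low Mg2+ on the high-fat diet. Ackr4 (ENSMUSG00000079355.4, chr9:104084157-104126933) encodes a scavenger of CCL19, CCL21 and CCL25. It was at 9.23, 7.28, 6.41, 6.43 and 11.36 FPKM in NormMg-HFD and 12.1, 11.9, 12.13, 9.88 and 13.16 FPKM in LowMg-HFD. Replicate 5 of NormMg-HFD and replicate 4 of LowMg-HFD overlapped. The gene rose by 0.51 ± 0.14 on the log2 scale (1.43-fold, adjusted p = 0.013). It overlaps with Acad11 on the opposite strand, whose group means ran in the same order, at 37.9 FPKM in NormMg-HFD and 54.7 FPKM in LowMg-HFD. The level of Ackr4 is therefore uncertain.

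Cxcr4, the CXCL12 receptor, did not pass, at -0.55 ± 0.21 on the log2 scale (adjusted p = 0.0736). For Ccr2 the difference was -0.40 (95% CI -0.90 to 0.09, adjusted p = 0.25), with means of 25.5 and 19 FPKM. Ackr3, a scavenger of CXCL12, was level across the groups, with means of 18.3 to 21.4 FPKM and a log2 difference of 0.07 (95% CI -0.30 to 0.44). At the lower filter, Ackr1, a chemokine transporter of venular endothelium, was at 6.28, 4.99, 8.32, 3.68 and 4.76 FPKM in NormMg-HFD and 3.17, 4.28, 3.28, 3.83 and 2.88 FPKM in LowMg-HFD. The groups overlapped. It fell by 0.53 ± 0.16 on the log2 scale (adjusted p = 0.0389), a call lost in 11 of 26 alternative settings. It overlaps with Cadm3 on its own strand. Lowering the filter to 1 FPKM gave 12 called genes of 38 in all, 1 higher and 11 lower, where 12.5% of all 13454 genes were called.

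**Figure D2:**
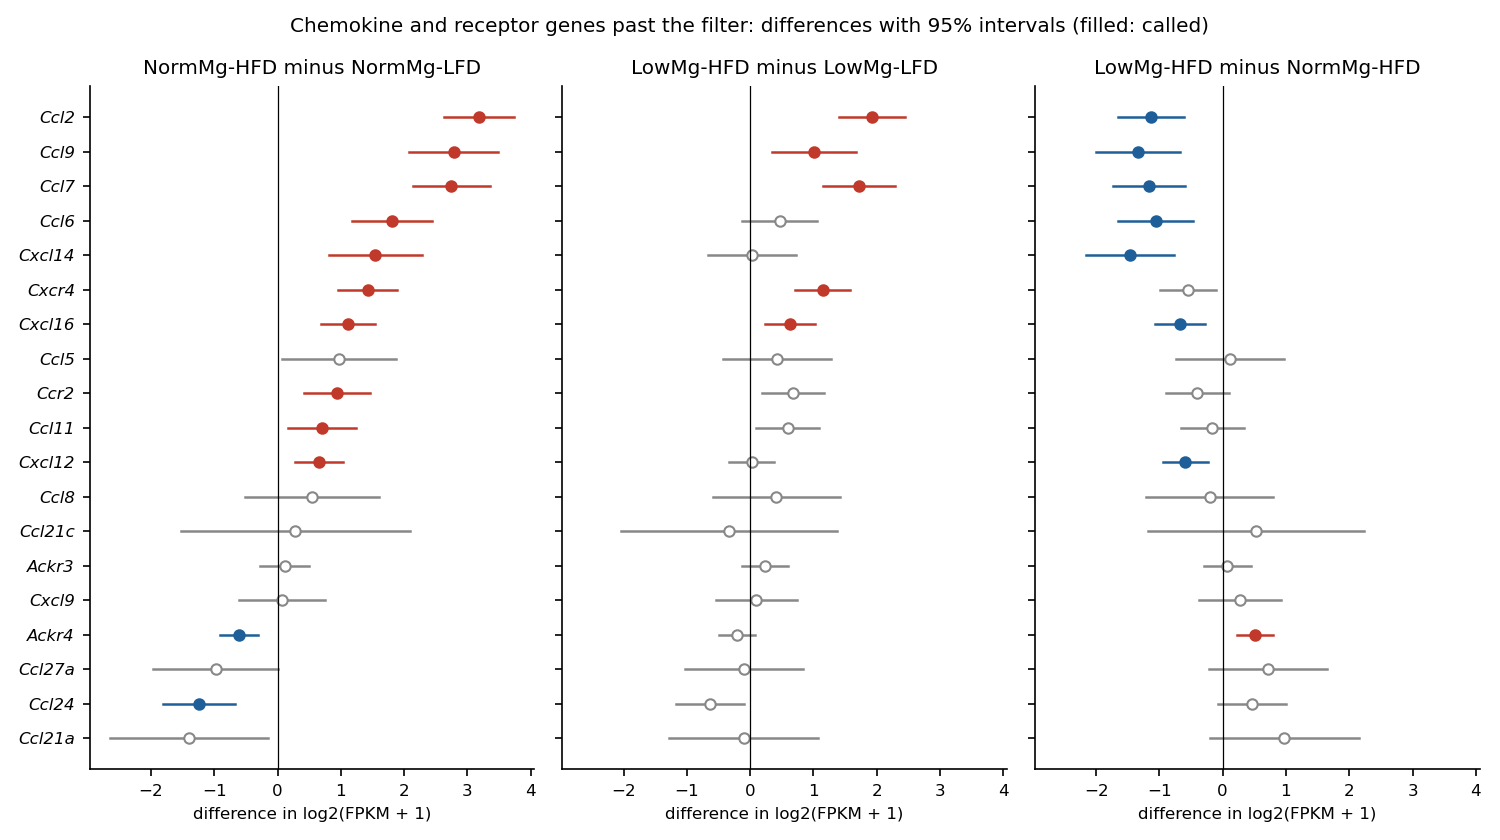
Log2 differences of FPKM + 1 with 95% confidence intervals for the chemokine and receptor genes in the main test, 1 gene left out. The comparisons shown are NormMg-HFD against NormMg-LFD, LowMg-HFD against LowMg-LFD and LowMg-HFD against NormMg-HFD. Filled points were called by limma. In LowMg-HFD against NormMg-HFD, the filled points are 7 ligands on the lower side and Ackr4 on the higher.

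The effect of fat at normal Mg2+ was broader. Between NormMg-HFD and NormMg-LFD, 13 of the 20 genes were called, 11 as higher and 2 as lower, where 37.4% of all genes were called, 24.6% as higher and 12.8% as lower. Among the genes that rose were the 7 ligands that fell with low Mg2+ on the high-fat diet, Ccl11 and the receptors Cxcr4 and Ccr2. The NormMg-HFD mice are the same in this comparison and the one above, so the values of both are not independent. Cxcr4 rose 2.69-fold (log2 difference 1.43 ± 0.22, adjusted p = 5.14e-05). For Ccr2 the rise was 0.94 ± 0.25 on the log2 scale (adjusted p = 0.00603), a call lost in 1 of 30 alternative settings (adjusted p = 0.0525). Ccl11, which encodes an eosinophil-attracting eotaxin, was at 38.6 FPKM in NormMg-LFD and 60.8 FPKM in NormMg-HFD (log2 difference 0.70 ± 0.25, adjusted p = 0.0362), a call lost in 9 of 30 alternative settings.

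Ccl24, which encodes another eotaxin, went the other way. It was at 20.89, 23.17, 19.02 and 28.06 FPKM in NormMg-LFD and 9.61, 9.1, 11.08, 8.66 and 7.05 FPKM in NormMg-HFD. No NormMg-HFD mouse reached the lowest NormMg-LFD mouse. Ccl24 fell by 1.23 ± 0.27 on the log2 scale (2.35-fold, adjusted p = 0.00142). The LowMg-HFD mice were spread at 15.45, 7.17, 23.47, 8.99 and 14.48 FPKM. Eosinophil markers were near 0 in every mouse, with a summed level of 0.19 to 2.91 FPKM over 4 genes. Ackr4 fell by 0.61 ± 0.14 on the log2 scale (adjusted p = 0.0024), with the same reserve about Acad11. With the filter at 1 FPKM, 18 of 38 genes were called, 15 higher and 3 lower, where 30.0% of all genes were called. The genes added were Ccl3, Ccl4, Cxcl1 and Cxcl2, which rose, and Ccl25, a ligand of CCR9, which fell by 0.99 ± 0.22 on the log2 scale (adjusted p = 0.00198).

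At low Mg2+, fat called fewer chemokine genes. Between LowMg-HFD and LowMg-LFD, 5 of the 20 genes were called and all 5 were higher, namely Ccl2, Ccl7, Ccl9, Cxcl16 and Cxcr4. Among all genes 15.9% were called, 12.4% as higher and 3.51% as lower. Cxcr4 rose 2.21-fold (log2 difference 1.15 ± 0.21, adjusted p = 0.00178), from 3.12, 3.15, 5.62, 3.58 and 5.03 FPKM in LowMg-LFD to 11.79, 13.04, 11.61, 8.37 and 6.83 FPKM in LowMg-HFD. Ccl2, Ccl7 and Cxcr4 were called under every normalization and filter tried, and Ccl9 and Cxcl16 were not. With the filter at 1 FPKM the same 5 genes were called of 38, where 10.4% of all genes were called.

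Whether the effect of fat depended on Mg2+ was tested with the interaction term. By limma, 0 of the 20 genes were called, where 1.25% of all genes were, and 7 had an unadjusted p below 0.05. The lowest adjusted p was that of Ccl9, for which the rise with fat was smaller at low than at normal Mg2+ by 1.78 ± 0.46 on the log2 scale (adjusted p = 0.0551). For Ccl2 the corresponding value was -1.25 ± 0.36 (adjusted p = 0.0707) and for Cxcl14 -1.52 ± 0.49 (adjusted p = 0.0905). That a gene was called with fat at normal Mg2+ and missed the threshold at low Mg2+ was therefore not shown to be a difference between the diets.

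**Figure D3:**
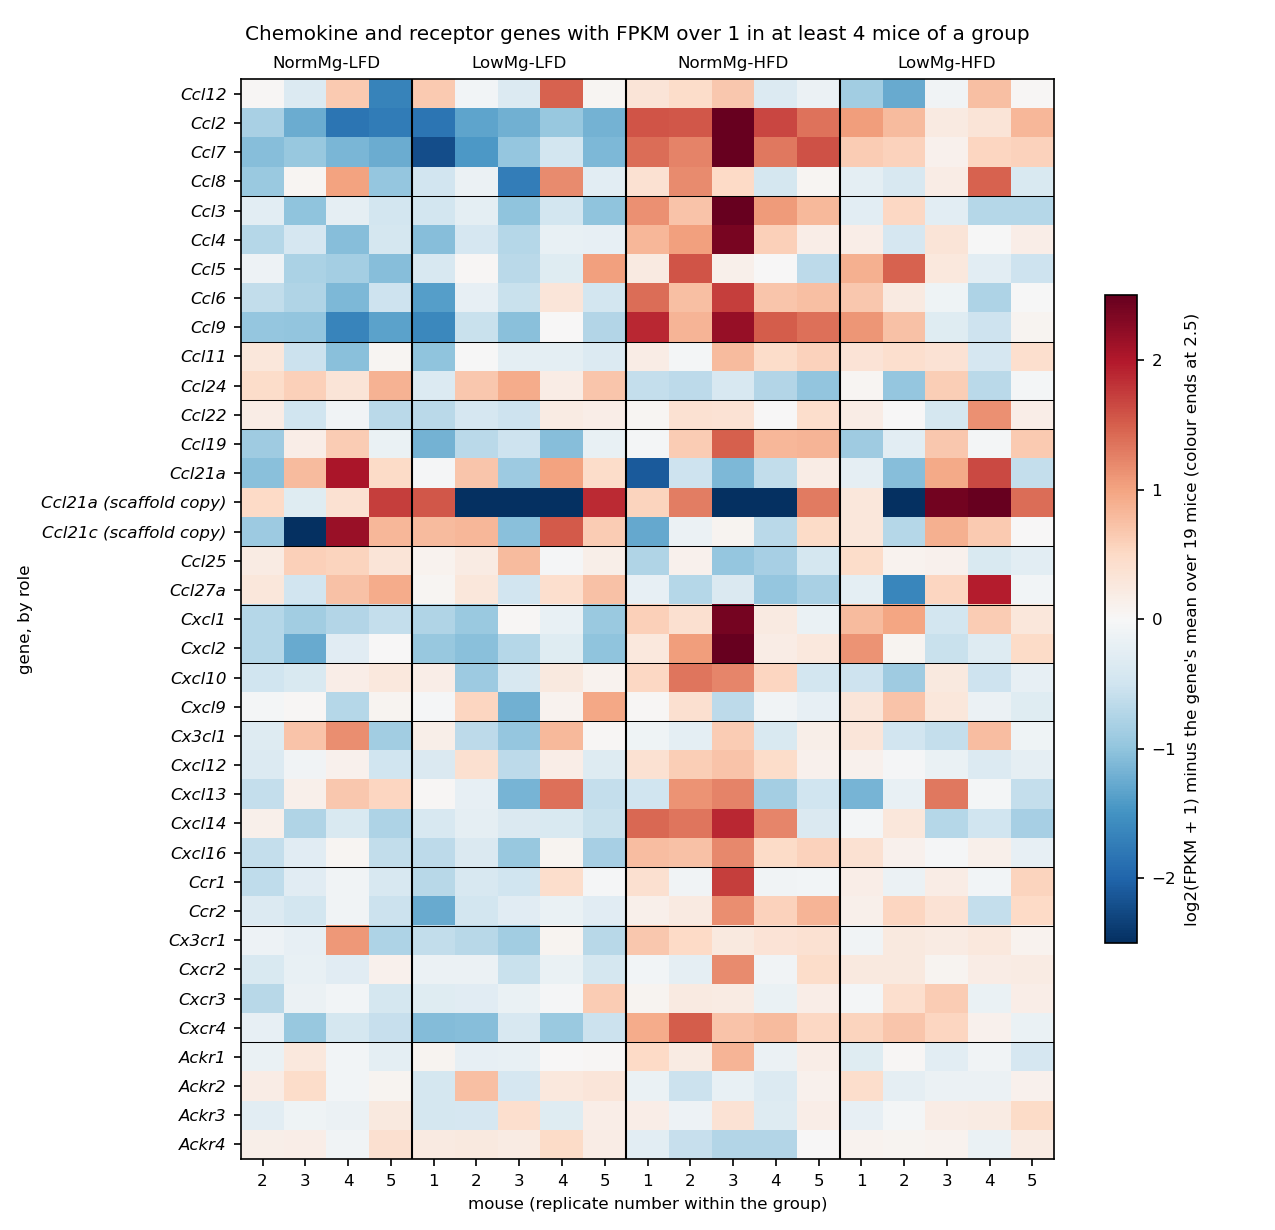
Heat map of the chemokine and receptor genes that passed the filter at 1 FPKM, 1 gene left out (rows), in the 19 mice (columns, by group), coloured by log2(FPKM + 1) minus the gene's mean over all mice. Ccl2, Ccl7, Ccl9 and Ccl6 are highest in NormMg-HFD, and for Ccl6 the low-fat mouse LowMg-LFD replicate 4 (197.47 FPKM) lies above 4 of the 5 LowMg-HFD mice.

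Markers of macrophages moved with these genes. Of 16 macrophage markers, 14 fell with low Mg2+ on the high-fat diet and none rose. With fat, 14 were higher and 1 was lower at normal Mg2+, and 8 were higher and none was lower at low Mg2+. Their summed level was 819 to 953 FPKM in NormMg-LFD, 630 to 1260 FPKM in LowMg-LFD, 2877 to 4707 FPKM in NormMg-HFD and 949 to 2644 FPKM in LowMg-HFD. None of the 16 was at 0. In tissue RNA, fewer cells of a type and less RNA per cell cannot be told apart. Of 6 adipose progenitor markers, 3 were lower in LowMg-HFD and none was higher, with a summed level of 1454 to 2026 FPKM in NormMg-HFD and 892 to 1117 FPKM in LowMg-HFD. All 3 tested mast cell markers, 1 of 2 tested dendritic cell markers (Itgax) and the 1 tested neutrophil marker were lower as well. In contrast, 3 of 6 adipocyte markers and 2 of 6 blood endothelium markers were higher. Over all genes, 12.9% were lower and 5.58% higher. In the dendritic cell list, means of Zbtb46, Cd209a, Itgae and Siglech were higher in LowMg-HFD than in NormMg-HFD, and those of Flt3, Clec9a and Batf3 lower. In the mast cell and neutrophil lists, only the means of Kit and Elane were higher. With fat, 3 of 6 adipose progenitor markers were higher at normal Mg2+ and 3 at low Mg2+. Of 6 adipocyte markers, 3 were lower and 1 was higher with fat at normal Mg2+, and 2 of 6 blood endothelium markers were lower. In the same comparison the 1 tested mesothelium marker was lower, and 1 of 2 tested dendritic cell markers and the 1 tested neutrophil marker were higher. Markers of T cells, B cells and NK cells did not pass the filter in the main test. The part of these cells in the chemokine values was not tested.

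As a description, the ligands were also expressed per 100 FPKM of summed macrophage markers. Ccl6 per 100 FPKM had a median of 11.7 in NormMg-LFD, 12.8 in LowMg-LFD, 9.34 in NormMg-HFD and 9.84 in LowMg-HFD, and the ranges of all groups overlapped. Ccl9 had medians of 4.04, 4.84, 6.98 and 5.93 in the same order. Ccl2 ranged from 0.340 to 0.875 in NormMg-LFD and 0.494 to 0.657 in LowMg-LFD, below the 1.02 to 2.10 of NormMg-HFD and the 1.08 to 1.89 of LowMg-HFD. On this scale Ccl2 still separated the high-fat from the low-fat mice, and the NormMg-HFD and LowMg-HFD ranges overlapped. Ccl24 lay at 2.00 to 3.04 in NormMg-LFD, 1.35 to 3.47 in LowMg-LFD, 0.224 to 0.272 in NormMg-HFD and 0.310 to 1.63 in LowMg-HFD. It was the lowest in NormMg-HFD, without overlap with the other groups. In FPKM, the NormMg-HFD and LowMg-HFD mice overlapped for Ccl24, and the macrophage sum itself differed between these groups. Cxcl12, a stromal product, was lower per 100 FPKM of macrophage markers in NormMg-HFD (1.81 to 2.75) than in NormMg-LFD (4.53 to 6.84), the reverse of its order in FPKM. The same held for Cxcl16 (0.378 to 0.519 against 0.645 to 1.06) and Ccr2 (0.410 to 1.03 against 1.16 to 1.57). The median macrophage sum was 898 FPKM in NormMg-LFD and 3660 FPKM in NormMg-HFD. Any gene that rises less than this sum is reversed on this scale. The sum is not a count of macrophages: with fat at normal Mg2+, the mean of its member Gpnmb went from 10.5 to 429 FPKM, and that of Cd163 from 25.7 to 17.8 FPKM.

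**Figure D4:**
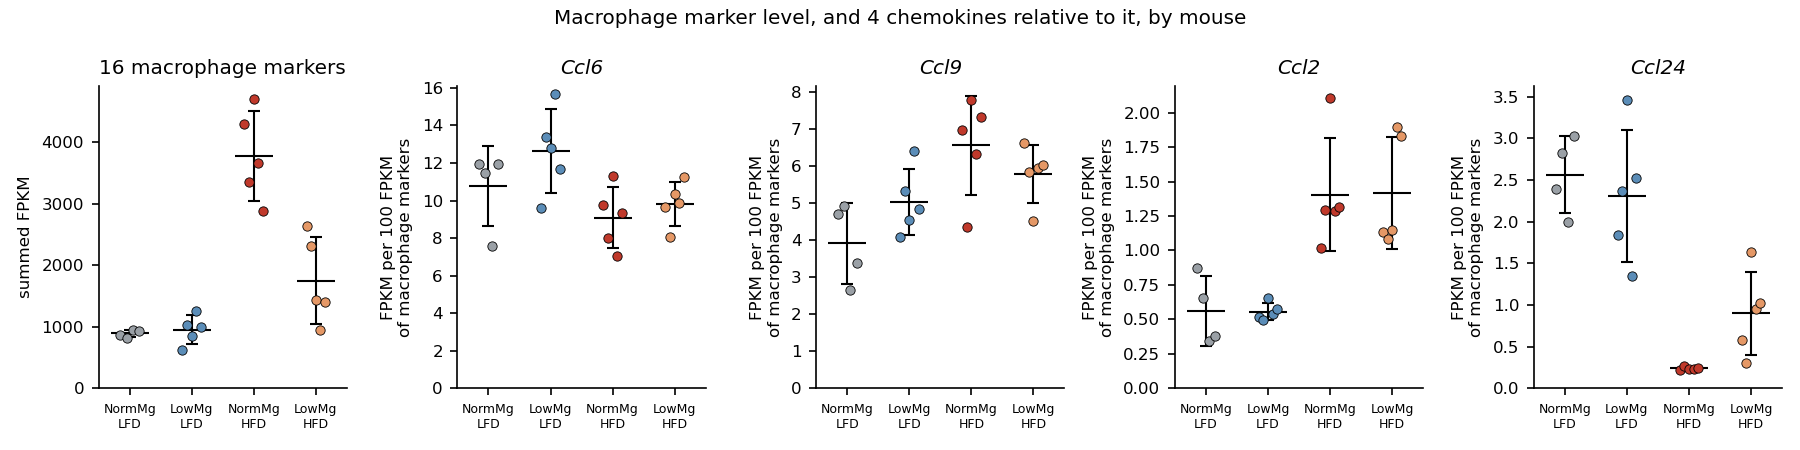
Summed FPKM of 16 macrophage markers, and Ccl6, Ccl9, Ccl2 and Ccl24 per 100 FPKM of that sum, in each mouse (points; bars show the group mean, whiskers the SD). Ccl6 overlaps between all groups, Ccl2 is higher in both high-fat groups than in the low-fat groups, and Ccl24 is lowest in NormMg-HFD.

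NormMg-HFD replicate 3 stood apart in the CXCR2 ligands. Cxcl2 was at 30.73 FPKM in this mouse and 1.73 to 3.94 FPKM in the other 4 mice of the group. Cxcl1 was at 12.85 FPKM against 1.33 to 2.94 FPKM. Cxcl3 was at 13.02 FPKM, where all other mice were at 0 to 0.35 FPKM, and Cxcl5 at 10.87 FPKM, where all others were at 0 to 0.63 FPKM. The mouse also had the highest Ccl2, Ccl7, Ccl3, Ccl4, Ccr1, Ccl6, Ccl9, Cxcl12, Cxcl14, Cxcl16 and Ccr2 levels of its group. Of all mice it had the highest sums of neutrophil, macrophage (4707 FPKM) and adipose progenitor markers (2026 FPKM). Without this mouse, 4 of the 8 genes called with low Mg2+ on the high-fat diet were still called: Ccl2 fell by 0.90 ± 0.21 on the log2 scale (adjusted p = 0.0159), Ccl7 by 0.90 ± 0.24 (adjusted p = 0.0215) and Ccl9 by 1.18 ± 0.33 (adjusted p = 0.0276), and Ackr4 rose by 0.45 ± 0.14 (adjusted p = 0.0459). Ccl6, Cxcl12 and Cxcl16 were no longer called, with log2 differences of -0.89, -0.53 and -0.56 (adjusted p = 0.0526, 0.0691 and 0.0676) against -1.06, -0.59 and -0.67 with all mice. Cxcl14 no longer passed the filter. Leaving out NormMg-LFD replicate 3 and LowMg-LFD replicate 4 as well gave 5 calls, all lower, for Ccl2, Ccl6, Ccl7, Ccl9 and Cxcl16. Without LowMg-HFD replicate 4 alone, 7 of the 8 were called, the exception being Cxcl12. Without NormMg-HFD replicate 3 alone, Ccl4, Cxcl10 and Ackr1 were no longer called at the lower filter, and Ccl3 had a log2 difference of -1.22 ± 0.25 (adjusted p = 0.0143), still admitted by NormMg-HFD alone. With fat at normal Mg2+, the log2 differences of Cxcl1 and Cxcl2 were 1.42 and 1.65 with this mouse and 0.99 and 1.00 without it. Cxcl1 had passed the filter at 1 FPKM through both high-fat groups and Cxcl2 through NormMg-HFD alone, so the filter selected on these differences. With no filter Cxcl2 was not called (adjusted p = 0.0642). The Cxcl2 call was lost in 5 of 26 alternative settings, among them the omission of all 3 mice.

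**Figure D5:**
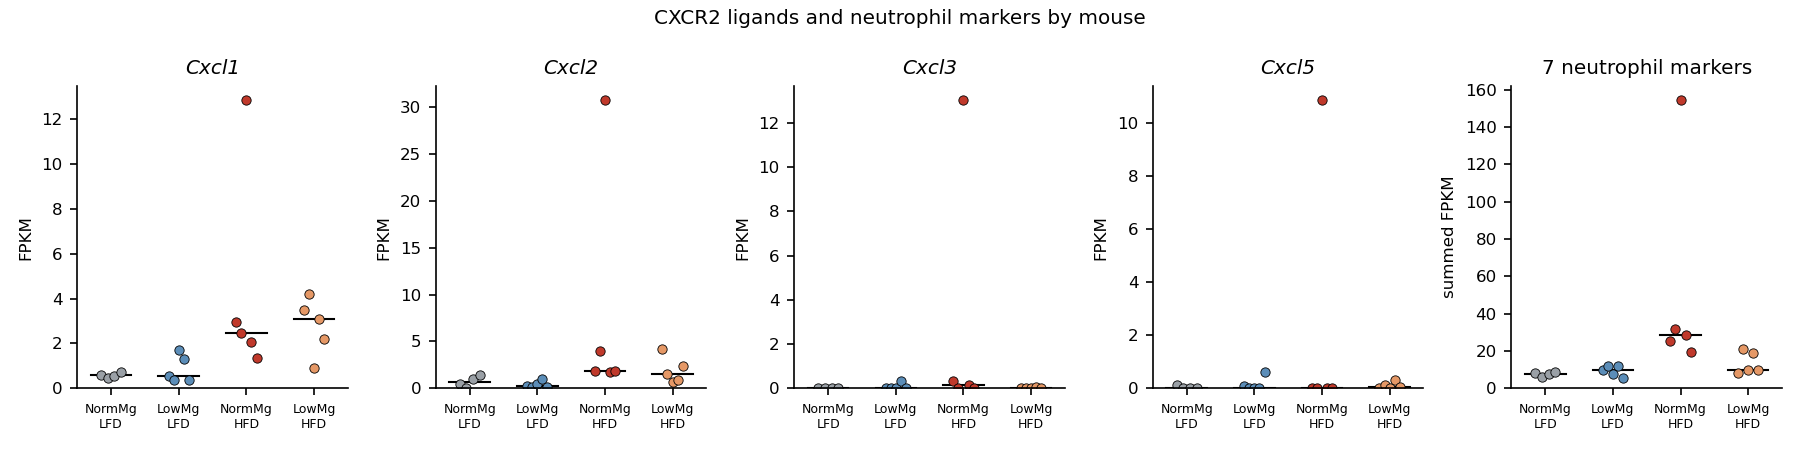
FPKM of the CXCR2 ligand genes and the summed neutrophil markers in each of the 19 mice on linear axes, with a bar at the group median. NormMg-HFD replicate 3 is the highest point for Cxcl1, Cxcl2, Cxcl3, Cxcl5 and the neutrophil markers.

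The remaining genes were low, uncertain or without a call. Ccl21a, a lymphatic and lymph node ligand of CCR7, had means of 76.6 FPKM in NormMg-LFD, 51.3 in LowMg-LFD, 24.5 in NormMg-HFD and 55.7 in LowMg-HFD, and was not called. The NormMg-LFD mean rests on 164.45 FPKM in replicate 4 and was 47.3 FPKM without this mouse. With fat at normal Mg2+ its log2 difference was -1.40 (95% CI -2.65 to -0.15, adjusted p = 0.0737), and it was called as lower in 4 of 30 alternatives, among them median centring and quantile normalization. The summed level of 4 lymphatic endothelium markers was 20.46 to 43.12 FPKM and overlapped between all groups. Ccl21a, Ccl21b, Ccl21c and Ccl27a each have near-identical gene copies that can share reads, so their values are uncertain. The Ccl21c entry in the main test had means of 36.6, 36.3, 18.4 and 26.6 FPKM in the same order and was not called. Its NormMg-LFD mice were at 10.75, 0.03, 97.41 and 38.07 FPKM, and without replicate 4, the mouse at 97.41 FPKM, their mean was 16.3 FPKM. Both Ccl21b entries and 1 of the Ccl21c entries held identical values in every mouse. Ccl27a had means of 13.2, 11.4, 5.91 and 14.4 FPKM in the same order and was not called. The LowMg-HFD mice were at 7.74, 2.35, 14.05, 39.11 and 8.86 FPKM, and without replicate 4, the mouse with spermatid genes, the mean was 8.25 FPKM. Its log2 difference with fat at normal Mg2+ was -0.98 (adjusted p = 0.113), and it was called without LowMg-HFD replicate 4 (adjusted p = 0.0373) or replicate 2 (adjusted p = 0.0479). With low Mg2+ on the high-fat diet, Ccl27a was called as higher without LowMg-HFD replicate 2 (log2 difference 1.16, adjusted p = 0.0365, against 0.72, adjusted p = 0.276, with all mice). Ccl19, the other CCR7 ligand, passed only the lower filter, with means of 8.76 FPKM in NormMg-HFD and 5.03 FPKM in LowMg-HFD (log2 difference -0.73, 95% CI -1.42 to -0.03, adjusted p = 0.165). Ccr1, Cxcr2, Cxcr3, Cx3cr1, Cx3cl1, Cxcl13, Ccl22, Ackr2 and a second Ccl21a entry also passed only the lower filter and were called in no comparison. The group means ran from 2.21 to 5.10 FPKM for Ccr1, from 1.32 to 2.61 for Cxcr2, from 1.06 to 2.02 for Cxcr3 and from 0.588 to 2.08 for Cx3cr1. They ran from 3.97 to 5.45 FPKM for Cx3cl1, from 2.15 to 2.77 for Cxcl13, from 0.775 to 1.59 for Ccl22, from 2.09 to 3.02 for Ackr2 and from 7.35 to 19.9 for the Ccl21a entry. Leaving out 1 mouse moved a group mean by over 1.5 times for Ccr1, Cx3cr1, Cxcl13 and this Ccl21a entry.

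The 9 genes over 1 FPKM in a group that passed neither filter were Ccr10, Cxcr6, Ccl17, Cxcl3, Cxcl5, Ccl28, both Ccl21b entries and the Ccl21c entry with the same values. The 14 with a mean of at most 1 FPKM in every group were Ccr3, Ccr4, Ccr6, Ccr7, Ccr8, Ccr9, Cxcr5, Xcr1, Cxcl15, Cxcl17, Ccl1, Xcl1 and 2 further entries of Ccl27a. The latter include the lymphocyte homing receptors Ccr7, Ccr9 and Cxcr5. Of the former, Ccr10 had group means of 0.618 to 1.00 FPKM, Cxcr6 of 0.758 to 1.24, Ccl17 of 0.36 to 1.35, Cxcl3 of 0 to 2.71 and Cxcl5 of 0.0275 to 2.17. Ccl28 had group means of 0.444 to 3.17 FPKM and the Ccl21b entries of 0.686 to 3.89. Both were highest in replicate 4 of NormMg-LFD, LowMg-LFD and LowMg-HFD. Ccr3, the eotaxin receptor, was at 0.26 to 0.99 FPKM in NormMg-HFD and 0 to 0.42 FPKM in the other groups.

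Genes that act below the chemokine receptors were described with a fixed list of 61 symbols, of which 59 were in the table and 48 were tested. It holds G protein subunits, regulators of G protein signalling, kinases and cytoskeletal exchange factors. With low Mg2+ on the high-fat diet, 25 of the 48 were lower and none was higher, beside 12.9% lower over all genes. Rgs1, which ends chemokine receptor signalling, fell by 2.18 on the log2 scale (adjusted p = 0.00393). Rgs2, a related regulator, fell by 1.26 (adjusted p = 0.00556). None was called with low Mg2+ on the low-fat diet. With fat, 30 were higher and none was lower at normal Mg2+, and 18 were higher and none was lower at low Mg2+, beside 24.6% and 12.4% higher over all genes. Pik3r5, a subunit of the kinase that G proteins activate, rose by 2.29 on the log2 scale with fat at normal Mg2+. Prkcd, a protein kinase C, and Dock2, an exchange factor for Rac, rose by 1.10 and 1.09 at low Mg2+. Rgs1 had log2 differences of 5.12 and 1.94 in these comparisons, which have no mice in common. For 3 of the 48, the interaction was called, beside 1.25% of all genes, each with a smaller rise at low Mg2+, among them Rgs1 (-3.18) and Prkcb (-1.43), both with an adjusted p of 0.0447. These calls are not stable: no gene of the whole table was called for the interaction under the replicate block, without the 3 mice, or in 8 of the 19 fits that left out 1 mouse.

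A second list held 10 genes in the table for chemokine-like proteins and their partners whose symbols fall outside the naming rule, of which 6 were tested. With low Mg2+ on the high-fat diet, 2 of the 6 were lower and none was higher, beside 12.9% lower over all genes. Pf4, the platelet CXC chemokine also made by macrophages, fell by 0.70 on the log2 scale (adjusted p = 0.0106). Cd74, the invariant chain that also binds MIF, fell by 0.61 (adjusted p = 0.0152). With fat at normal Mg2+, Cd74 and Pf4 rose by 1.17 and 0.63 on the log2 scale, and Cmklr1, the chemerin receptor, fell by 0.65. At low Mg2+, Cd74 rose by 0.67 and Rarres2, the chemerin gene, by 0.50.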

How the data were processed

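RNA sequencing of eWAT from 19 male mice in 4 diet groups was analysed. Per the labels and the study's methods, the authors sequenced single-end reads, mapped them to the mouse transcriptome (GRCm38/mm10) with HISAT and Bowtie2, quantified genes with RSEM 1.2.31 and deposited FPKM values, 1 column per mouse, with a table of reads per library and the percent mapped. The strand setting is not given in the sources used here. The study left out 1 LowMg-HFD mouse for pancreatic contamination, which the labels do not name. Here pancreas genes were high in NormMg-LFD replicate 3 and in no LowMg-HFD mouse, and all 19 mice were kept. One gene with a cell that is not a number was dropped, leaving 24237, and 26 symbols turned into dates were restored.

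From these values log2(FPKM + 1) was computed. All 19 mice entered 1 linear model with 5 contrasts, with variances moderated along the intensity trend in limma 3.58.1 under R 4.3.3. Genes needed a mean over 8 FPKM in a group and over 8 FPKM in at least 4 of its mice, which left 8336. Adjustment was by Benjamini-Hochberg over all genes of a contrast at 0.05. The procedure was tested on simulated data. Each mouse is 1 sample without technical replicates. The members, gene lists and comparisons were chosen with earlier results of these data known. Some genes that enter the fits and counts are not reported here. Otherwise, by rule, every member is named, those past the filter with values or group means, those called in the main test with low Mg2+ on the high-fat diet with the value in every mouse of the high-fat groups, and in the pathway lists the 3 largest called changes in each direction. Motifs were searched in RefSeq promoter sequences, which 42 of the 56 symbols matched. Replicate numbers were checked for pairing. They do not mark a shared animal, since each mouse was in 1 group, and correlations of same-numbered mice ran from -0.18 to 0.34. The labels do not say what the numbers mean, so a batch shared by same-numbered mice was not excluded. Alternatives were pseudocounts, filters, normalizations, subsets of groups, a replicate block and the omission of mice. Intervals cover the spread between mice.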

Additional observations from a re-analysis of the deposited data

Results flagged for a closer look

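In 152 sets of 4 or 5 mice, 1 for each of the 38 genes past the filter at 1 FPKM in each group, 13 values, from 8 mice, lay apart from the rest of their group by Dixon's test. Chance alone gives about 1 in 20 such sets. NormMg-HFD replicate 3 accounted for 5 of them, all high. It had 98.99 FPKM for Ccl2 (others 37.78 to 47.1), 74.98 for Ccl7 (27 to 34.53), 13.21 for Ccl3 (2.32 to 3.46), 12.54 for Ccr1 (2.83 to 4.39) and 30.73 for Cxcl2 (1.73 to 3.94). Neutrophil markers summed to 154 FPKM in this mouse and 5.47 to 31.81 in the others, and their part in these values was not tested.

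LowMg-LFD replicate 4 was high for Ackr4 at 16.01 FPKM (13.02 to 13.55) and for Cx3cr1 at 1.38 (0.25 to 0.49), and epididymis genes summed to 121 FPKM in it. LowMg-HFD replicate 4 was low for Ccl11, at 33.5 FPKM against 57.5 to 61.19, and held spermatid genes. LowMg-HFD replicate 3 was low for Ccl7 at 11.7 FPKM (16.08 to 17.45). In LowMg-LFD, replicate 1 was low for Ccr2 at 6.06 FPKM (11.31 to 14.06), replicate 3 high for Ccl25 at 8.07 (4.14 to 5.03) and replicate 5 high for Cxcr3 at 3.01 (1.1 to 1.52). NormMg-LFD replicate 4 was low for Cxcl9 at 15.21 FPKM (24.75 to 26.87).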

How the results depend on the processing

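Of 35 called values over the comparisons, 22 were called in every alternative run in which they were tested, and 0 changed sign. With low Mg2+ on the high-fat diet, Ccl2, Ccl7 and Ccl9 were called in every alternative. Cxcl14 was not tested at the main filter when NormMg-HFD replicate 1, 2, 3 or 4 or the 3 mice were left out, and was called in all 26 alternatives at the filter of 1 FPKM. The 8 calls became 5 without the 3 mice with pancreas, epididymis or neutrophil genes, an alternative added after seeing the data. With no filter there were again 8, with Cxcl12 and Cxcl16 lost and Ccl3 and Ccr3 gained, and leaving out LowMg-HFD replicate 5 also lost Cxcl12 and Cxcl16. They became 12 with the filter at 1 FPKM, where 38 genes rather than 20 were tested, and 4 to 11 when 1 mouse was left out, with 4 without NormMg-HFD replicate 3 and 11 without LowMg-HFD replicate 2. With fat at normal Mg2+, the 13 calls became 18 at that filter, 17 with no filter and 11 to 14 with 1 mouse left out. With fat at low Mg2+, the 5 calls became 3 under no filter, median centring, quantile normalization or only the groups compared, and 3 to 7 with 1 mouse left out, with 7 without LowMg-HFD replicate 4. Ccl9 and Cxcl16 were lost and the cause was not tested. For the interaction, the 0 calls became 1 under median centring (Ccl9), 2 under quantile normalization (Ccl2 and Ccl9) and 0 to 3 with 1 mouse left out, with 3 without LowMg-LFD replicate 1, LowMg-HFD replicate 1 or NormMg-HFD replicate 5. Over all genes, 104 interaction calls became 0 to 482 with 1 mouse left out and 0 under the replicate block. With low Mg2+ on the low-fat diet, 0 were called in every setting.

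Fitting a replicate block gave 8 calls with low Mg2+ on the high-fat diet, 0 on the low-fat diet, 13 with fat at normal Mg2+, 5 at low Mg2+ and 0 for the interaction. At low Mg2+ the block replaced Ccl9 by Ccr2. In no pair of groups did every same-numbered pair correlate above 0.1, but 2 of the 4 pairs between NormMg-LFD and LowMg-LFD did. This check cannot exclude a batch shared by same-numbered mice. Groups of 4 or 5 mice and values without counts limit what can be said of genes near 1 FPKM. Cxcr4 was called with low Mg2+ on the high-fat diet without LowMg-HFD replicate 2 or NormMg-HFD replicate 5, and Ccl5 with fat at normal Mg2+ without NormMg-HFD replicate 5. Of 29 values with an unadjusted p below 0.05 that were not called, 17 were called in some alternative.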

Other observations

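Some of the low genes were high in only a few mice. Ccl28, a mucosal chemokine of epithelia, was at 10.39 FPKM in NormMg-LFD replicate 4, 6.65 FPKM in LowMg-LFD replicate 4 and 6.27 FPKM in LowMg-HFD replicate 4, and at most 1.46 FPKM in the other mice. Of these, LowMg-LFD replicate 4 also held epididymis genes and LowMg-HFD replicate 4 spermatid genes. The Ccl21b entries were at 12.68 FPKM in NormMg-LFD replicate 4, 4.36 FPKM in LowMg-LFD replicate 4 and 3.57 FPKM in LowMg-HFD replicate 4, and lower in the other mice. Ccr3, the eotaxin receptor gene, was called as lower with low Mg2+ on the high-fat diet and as higher with fat at normal Mg2+ only when no filter was set, with all mice below 1 FPKM.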
